A study of Mus musculus with 7 samples.

Results

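The nuclear genes for the subunits of oxidative phosphorylation were followed across 7 libraries of polyadenylated RNA from adult mouse hippocampus. They were chosen by name among protein-coding gene records: Nduf followed by a, b, c, s or v and a digit, Sdha to Sdhd, names starting with Uqcr or Atp5, and Cox4 to Cox8 followed by a letter from a to c. The rule took 83 of the 38924 gene records, of which 22572 were protein coding. By their names, complex I held 37 of these genes, complex II 4, complex III 8, complex IV 16 and complex V 18. Atp5l-ps1 carries a pseudogene name but is typed as protein coding, and Atp5l2 matched by name but is not typed as protein coding and was left out.

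There were 3 libraries from the Ammon's horn (AH, the part of the hippocampus made of the CA fields) of mice homozygous for a deletion of Khdrbs3, 1 library from the dentate gyrus (DG) of wild-type mice, and 3 from wild-type AH. Khdrbs3, also called T-STAR, encodes an RNA-binding regulator of splicing. All mice were adult and untreated, and the line carrying the Tstar null allele had been crossed to C57Bl6 for 8 generations. Whether a library is 1 animal or a pool is not given in the labels, so p-values cover the spread from library to library, which may be technical in part.

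The subunits sit in the inner mitochondrial membrane. Complexes I and II pass electrons from NADH and succinate to ubiquinone, complex III passes them to cytochrome c and complex IV to oxygen. Complexes I, III and IV pump protons, and the gradient drives ATP synthesis by complex V. Most subunits are encoded in the nucleus, and those of complexes I, III, IV and V are assembled with partners encoded in mitochondrial DNA. Neurons draw most of their ATP from this route.

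The deleted gene was checked first. In its second exon bin Khdrbs3 had 6, 9 and 7 reads in the knockout libraries, 506 in the DG and 808, 1103 and 964 in wild-type AH, while its later bins held reads in every library. The whole gene was called higher in the knockout, at 198, 203 and 197 CPM in the knockout, where wild-type AH had 142, 142 and 135 CPM (CPM are counts per 1000000 counts after TMM scaling; log2 fold change 0.51 ± 0.05, edgeR adjusted p = 0.00245), so the second bin carries the check of the labels. Gene counts summed to between 50230733 and 67692326 per library, of which the subunit genes took 0.824% to 0.876% in the knockout, 0.756% in the DG and 0.871% to 0.960% in wild-type AH. The granule cell gene Prox1 stood at 211 CPM in the DG against 24.0, 18.8 and 27.9 CPM in wild-type AH. Of the granule cell markers 5 of 6 were higher in the DG and 1, Pdzd2, was lower, and 6 of 6 CA1 markers were lower. Summed choroid plexus markers were at 1159, 142 and 1131 CPM in the knockout, 435 CPM in the DG and 314, 166 and 135 CPM in wild-type AH, so knockout libraries 1 and 3 stood apart.

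Of the 82 subunit genes tested, 65 were lower in the DG than in wild-type AH and 0 were higher. By complex, 31 of 37 genes of complex I, 2 of 4 of complex II, 8 of 8 of complex III, 11 of 15 tested of complex IV and 13 of 18 of complex V were called lower. The differences were moderate: the median log2 fold change of the 82 genes was -0.39, a level 23.8% lower, against -0.01 for all 24486 genes tested. A gene was called at a Benjamini-Hochberg adjusted p under 0.05 over all genes tested, in edgeR's quasi-likelihood test. By this rule 10.9% of all genes tested were lower and 11.2% higher. With a single DG library, its variance was taken to be that of the AH libraries.

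Summed over the genes of the rule, the level was 7142 CPM in the DG and 9031, 8473 and 8368 CPM in the knockout, against 8847, 9406 and 9086 CPM in wild-type AH. The DG library lay below each of the 6 AH libraries. Gene by gene it lay below all 3 wild-type AH libraries in 75 of 82 genes, where 35.3% of all genes tested did so, and below all 6 AH libraries in 72 of 82, where 27.8% did. The exceptions among wild-type libraries were Ndufs4, Cox6b2, Cox7b2, Cox8b, Atp5l-ps1, Atp5o and Atp5s.

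**Figure D1:**
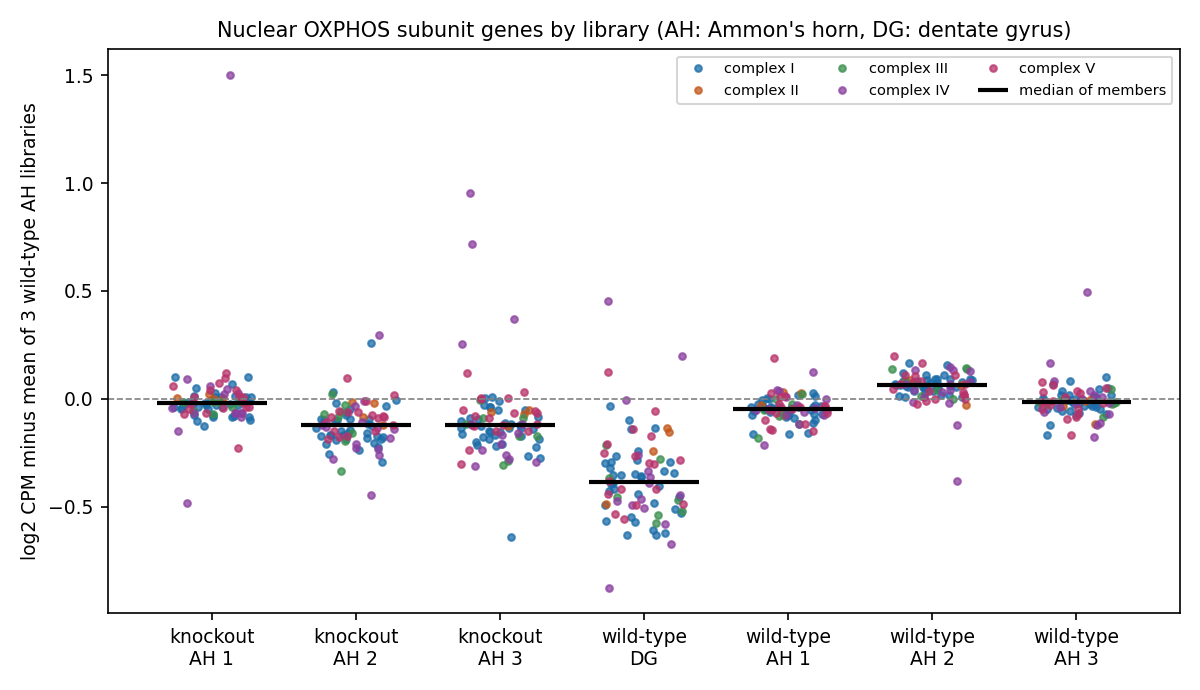
Each point is 1 subunit gene in 1 library, as its log2 CPM (prior count of 2) minus the mean of the 3 wild-type Ammon's horn (AH) libraries, coloured by complex. Black lines are medians over the genes: -0.02, -0.12 and -0.12 in the knockout, -0.38 in the dentate gyrus (DG) and -0.05, 0.07 and -0.02 in wild-type AH.

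These were bulk samples, in which fewer cells of a type and less RNA per cell cannot be told apart. Markers of cell types moved with region. All 6 oligodendrocyte markers were called lower in the DG, with a sum of 1334 CPM in the DG against 4140, 4025 and 3972 CPM in wild-type AH. The CA1 markers summed to 98.6 CPM in the DG against 750.5, 771 and 745 CPM in wild-type AH. None of 6 astrocyte markers was called, with sums of 1464 CPM in the DG against 1369, 1283 and 1388 CPM in wild-type AH. Their part in the subunit values was not tested.

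Complex I, the NADH dehydrogenase, has core subunits that carry the flavin, the iron-sulphur clusters and the quinone site. Ndufv1, which binds NADH, was at 94.8 CPM in the DG against 119, 127 and 119 CPM in wild-type AH (log2 fold change -0.36 ± 0.08 standard error, edgeR adjusted p = 0.0061). All wild-type AH libraries lay above the DG library. The core subunits Ndufv2, Ndufs3, Ndufs7 and Ndufs8 were also called lower, with log2 fold changes of -0.30, -0.25, -0.36 and -0.40; the call of Ndufs3 held in 7 of 13 alternative settings, that of Ndufv2 in 12 (not with the 4 wild-type libraries alone). Ndufs1, which carries iron-sulphur clusters, was not called: it stood at 120.0 CPM in the DG against 132, 133 and 132 CPM in wild-type AH (-0.15 ± 0.07, edgeR adjusted p = 0.151).

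Larger differences stood among the accessory subunits, which surround the core. Ndufa1, a small membrane subunit encoded on the X chromosome, was at 26.0 CPM in the DG against 36.0, 43.1 and 42.4 CPM in wild-type AH (log2 fold change -0.64 ± 0.11 standard error, edgeR adjusted p = 0.00228), a level 36.0% lower. Ndufa12, a subunit of the matrix arm, was at 41.4 CPM in the DG against 60.3, 67.3 and 64.9 CPM in wild-type AH (-0.64 ± 0.10, edgeR adjusted p = 0.00106). Ndufb8, in the membrane arm, was at 62.7 CPM in the DG against 93.8, 102 and 94.1 CPM in wild-type AH (-0.63 ± 0.10, edgeR adjusted p = 0.00157); its record overlaps Gm20538. For all 3 genes the knockout libraries, too, lay above the DG library. Ndufa13, also known as GRIM-19, was called lower, with a log2 fold change of -0.62. Ndufa2, Ndufa5, Ndufb9, Ndufb7, Ndufb11 and Ndufb3 had log2 fold changes of -0.58, -0.58, -0.55, -0.54, -0.52 and -0.50, and Ndufs6 and Ndufs5 had -0.49 and -0.47, and all 8 were called lower. Also called lower were Ndufa4 (described with complex IV) and 12 further accessory subunits. These 12 (Ndufa3, Ndufa7, Ndufa8, Ndufa9, Ndufa10, Ndufa11, Ndufb4, Ndufb5, Ndufb6, Ndufb10, Ndufc1 and Ndufc2) had log2 fold changes between -0.45 and -0.29. Of 13 alternative settings the call of Ndufa7 held in 8, that of Ndufb4 in 9 and that of Ndufc1 in 11.

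Not called in complex I were Ndufa6 (-0.31, edgeR adjusted p = 0.0566), Ndufa4l2 (-0.28), Ndufs1, Ndufv3 (-0.14), Ndufb2 (-0.10) and Ndufs4. With exon-bin reads summed Ndufa6 was called lower (-0.44, edgeR adjusted p = 0.00807). The record of Ndufb2 overlaps Adck2, Braf and Gm16272, so its counts can hold reads of those genes. In the exon bins Ndufb2 is joined with another gene. Ndufs4, an accessory subunit whose loss in mice gives a Leigh-like brain disease, was at 40.9 CPM in the DG against 42.3, 43.3 and 39.8 CPM in wild-type AH (-0.04 ± 0.08, edgeR adjusted p = 0.766). The DG value of Ndufs4 lay within the range of the wild-type AH libraries. A test of Ndufs4 against other subunits was not made.

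Complex II, succinate dehydrogenase, links the citric acid cycle to the chain and is encoded in the nucleus alone. Sdhb, its iron-sulphur subunit, was at 65.5 CPM in the DG against 89.9, 95.8 and 89.5 CPM in wild-type AH (log2 fold change -0.49 ± 0.08 standard error, edgeR adjusted p = 0.00124). Sdha, the flavoprotein, was at 315 CPM in the DG against 379.9, 365 and 372 CPM in wild-type AH (-0.25 ± 0.07, edgeR adjusted p = 0.0298). The call of Sdha was absent with the 4 wild-type libraries alone and without knockout replicate 2, knockout replicate 3 or wild-type replicate 1, with an adjusted p of up to 0.0773. The membrane anchors Sdhc and Sdhd had log2 fold changes of -0.16 and -0.14 and were not called. The DG value lay below all 3 wild-type AH values in both, at 54.0 CPM in the DG against 56.9, 63.7 and 59.6 CPM in wild-type AH for Sdhc.

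All 8 genes of complex III, the cytochrome bc1 complex, were called lower in the DG, with a median log2 fold change of -0.47. Uqcrfs1, the Rieske iron-sulphur protein, was at 67.6 CPM in the DG against 85.7, 89.6 and 86.1 CPM in wild-type AH (log2 fold change -0.37 ± 0.07 standard error, edgeR adjusted p = 0.00284). The core protein Uqcrc1 was at 135 CPM in the DG against 179, 195 and 183 CPM in wild-type AH (-0.46 ± 0.08, edgeR adjusted p = 0.00187). The core protein Uqcrc2 was at 161 CPM in the DG against 187, 188 and 185 CPM in wild-type AH (-0.22 ± 0.07, edgeR adjusted p = 0.0408). The call of Uqcrc2 held in 6 of 13 alternative settings, with an adjusted p of up to 0.116; whether the core proteins differ in size of change was not tested. The small subunits Uqcrq, Uqcr11, Uqcrh and Uqcr10 had log2 fold changes of -0.59, -0.55, -0.53 and -0.48. Uqcrb was called lower, with a log2 fold change of -0.28, a call that was absent with exon-bin reads summed (-0.24, edgeR adjusted p = 0.0506) and with the 4 wild-type libraries alone.

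In complex IV, cytochrome c oxidase, the common isoforms of the nuclear subunits were called lower. Cox8a was at 169 CPM in the DG against 270.3, 275 and 262 CPM in wild-type AH (log2 fold change -0.68 ± 0.10 standard error, edgeR adjusted p = 0.00114), a level 37.6% lower. Cox6a1 was at 158 CPM in the DG against 229, 237 and 242 CPM in wild-type AH (-0.59 ± 0.09, edgeR adjusted p = 0.00132). In both genes the DG library lay below all 6 AH libraries. Cox7a2, Cox5b, Cox6b1, Cox7c, Cox5a, Cox7b and Cox6c had log2 fold changes of -0.52, -0.50, -0.48, -0.47, -0.45, -0.37 and -0.34. The record of Cox6c overlaps Vps13b, and with exon-bin reads its value was -0.52. The call of Cox7b held in 9 of 13 alternative settings. Cox7a2l, which takes part in joining complexes III and IV into supercomplexes, was called lower, with a log2 fold change of -0.27, a call that was absent with the 4 wild-type libraries alone (adjusted p = 0.0698). Ndufa4, placed in complex I by its name and now assigned to complex IV, was called lower, with a log2 fold change of -0.41; with Ndufa4 in complex IV the medians were -0.38 for complex I and -0.44 for complex IV, against -0.39 and -0.45 by name.

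The most negative called value was that of Cox6a2, the isoform of subunit 6a best known from heart and skeletal muscle, which had few counts. Cox6a2 was at 1.23 CPM in the DG against 2.34, 2.50 and 2.01 CPM in wild-type AH (log2 fold change -0.90 ± 0.26 standard error, edgeR adjusted p = 0.0326). Its call was absent without wild-type replicate 1 (adjusted p = 0.0585) and without wild-type replicate 2 (adjusted p = 0.0677), and its record overlaps Itgad. In mouse brain Cox6a2 is known from parvalbumin interneurons. The parvalbumin gene Pvalb was at 8.97 CPM in the DG against 27.3, 28.8 and 25.8 CPM in wild-type AH (-1.61 ± 0.12, edgeR adjusted p = 1.3e-05). Over the interneuron list 4 of 6 markers were called lower and 1 higher in the DG, with sums of 483 CPM in the DG against 635, 612 and 567 CPM in wild-type AH. The part of interneurons in the Cox6a2 value was not tested.

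Complex V, the ATP synthase, has a rotary F1 head and a membrane part, Fo. Atp5b, the catalytic beta subunit of the head, was at 893 CPM in the DG against 1049, 1098 and 1148 CPM in wild-type AH (log2 fold change -0.31 ± 0.08 standard error, edgeR adjusted p = 0.0201). Atp5a1, the alpha subunit, was at 664 CPM in the DG against 785, 807 and 803 CPM in wild-type AH (-0.27 ± 0.07, edgeR adjusted p = 0.0172). The central stalk subunits Atp5c1 (gamma), Atp5d (delta) and Atp5e (epsilon) were called lower, with log2 fold changes of -0.31, -0.57 and -0.51. Of the peripheral stalk Atp5h, Atp5j and Atp5f1 were called lower, with log2 fold changes of -0.45, -0.43 and -0.29; the call of Atp5f1 was absent with the 4 wild-type libraries alone (adjusted p = 0.0543). Of the membrane part Atp5j2, Atp5k and Atp5l were called lower, with log2 fold changes of -0.54, -0.50 and -0.26. The call of Atp5k was absent without wild-type replicate 2 (adjusted p = 0.0543), and that of Atp5l held in 7 of 13 alternative settings.

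All genes counted in complex V were placed there by their names alone, which does not show that each encodes a structural subunit. Not called among them were Atp5sl (-0.22), Atp5g2 (-0.18), Atp5l-ps1 (-0.15), Atp5s (-0.07) and Atp5o (0.12). With exon-bin reads summed Atp5sl was called lower (-0.29, edgeR adjusted p = 0.0411). Atp5o encodes OSCP, a subunit of the peripheral stalk. Its gene record runs over 247290 bases and overlaps 7 other records, among them Itsn1, Donson and Cryzl1. Its 307 CPM in the DG, against 272, 281 and 291 CPM in wild-type AH, can therefore hold reads of those genes. In all, 27 of the 83 records overlap another record. Among the 55 tested genes that overlap none, 42 were called lower, with a median log2 fold change of -0.40.

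**Figure D2:**
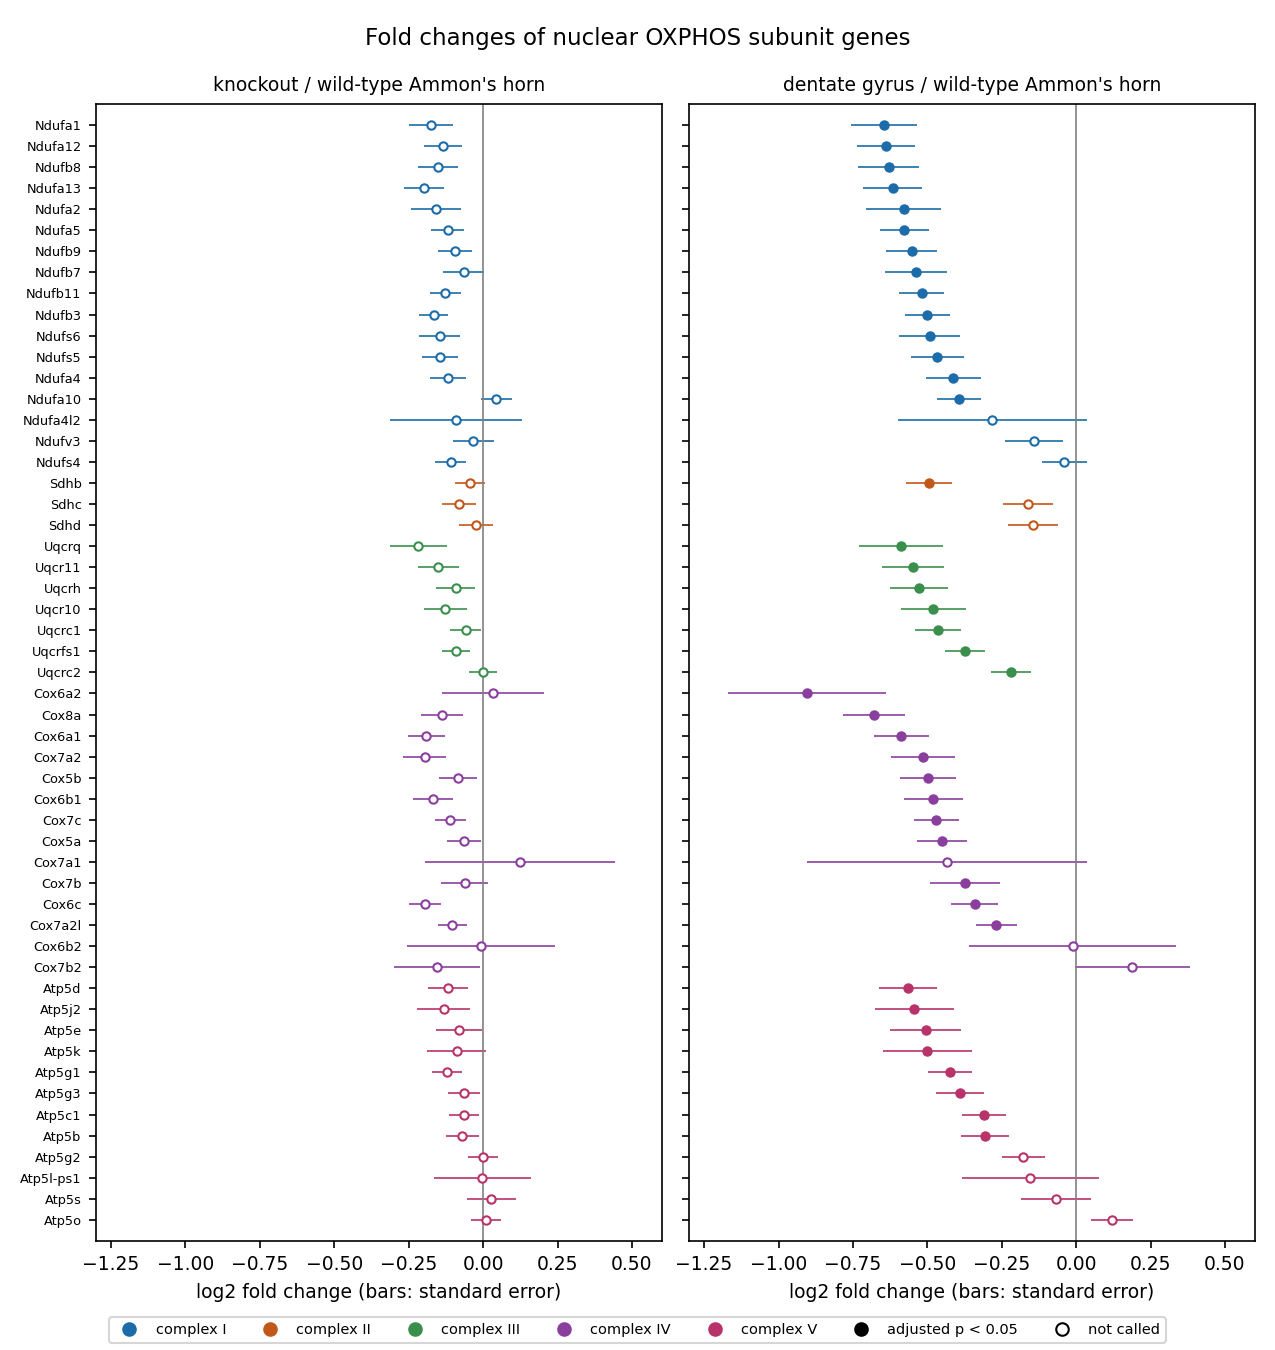
Log2 fold changes of 53 of the subunit genes, those of the naming rule, with standard errors, for the knockout over wild-type AH (left) and the DG over wild-type AH (right), grouped by complex. Filled points have an edgeR adjusted p under 0.05, which holds for 41 of these genes on the right and 0 on the left, and both panels share the wild-type AH libraries.

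NRF1, the ETS factor GABPA, YY1 and the ERR alpha receptor are known to act on respiratory genes, so the promoters were searched for their motifs on both strands. RefSeq windows of build GRCm38.p6, from 250 bases before to 50 bases after the start, were found by symbol for 66 of the 83 genes. The NRF1 motif (GCGCA, any base, GCGC) was in 17 of these 66 genes (25.8%), against 5.19% of all 27025 genes of the table. The YY1 motif AAGATGGCG was in 7 (10.6%, against 1.64%), the ETS motif CCGGAAG in 16 (24.2%, against 9.93%) and the ERR alpha motif TCAAGGTCA in 2 (3.03%, against 0.466%). The ETS motif ends in the letters AAG with which the YY1 motif starts, so these can overlap. Windows of 4 genes called lower in the DG are shown, since they hold motifs of 3 of these factors. They are Cox6a1 (chr5:115348909-115349208, minus strand), Uqcrc1 (chr9:108936398-108936697, plus strand), Ndufs6 (chr13:73328433-73328732, minus strand) and Cox8a (chr19:7217567-7217866, minus strand), each written along the gene with the motif of its line, on either strand, in capitals.
Cox6a1, 2 NRF1 motifs: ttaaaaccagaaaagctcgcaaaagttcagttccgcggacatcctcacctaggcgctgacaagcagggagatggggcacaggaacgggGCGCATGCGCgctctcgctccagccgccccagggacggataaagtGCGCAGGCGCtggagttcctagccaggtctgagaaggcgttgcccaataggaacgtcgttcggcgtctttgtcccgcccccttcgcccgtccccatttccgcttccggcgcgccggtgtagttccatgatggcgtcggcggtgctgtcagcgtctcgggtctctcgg
Uqcrc1, 2 NRF1 motifs: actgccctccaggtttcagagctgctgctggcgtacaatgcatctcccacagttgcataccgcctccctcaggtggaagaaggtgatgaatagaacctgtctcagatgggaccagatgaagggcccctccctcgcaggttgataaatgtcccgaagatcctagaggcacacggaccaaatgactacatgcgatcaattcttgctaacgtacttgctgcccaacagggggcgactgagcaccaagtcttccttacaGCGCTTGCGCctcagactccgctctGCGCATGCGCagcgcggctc
Ndufs6, 1 YY1 motif: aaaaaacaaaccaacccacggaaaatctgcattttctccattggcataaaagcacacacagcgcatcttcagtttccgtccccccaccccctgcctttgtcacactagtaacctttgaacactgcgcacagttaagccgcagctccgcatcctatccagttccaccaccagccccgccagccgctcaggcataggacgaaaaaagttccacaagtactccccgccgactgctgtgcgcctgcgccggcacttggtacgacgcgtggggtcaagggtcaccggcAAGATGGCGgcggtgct
Cox8a, 2 ETS motifs: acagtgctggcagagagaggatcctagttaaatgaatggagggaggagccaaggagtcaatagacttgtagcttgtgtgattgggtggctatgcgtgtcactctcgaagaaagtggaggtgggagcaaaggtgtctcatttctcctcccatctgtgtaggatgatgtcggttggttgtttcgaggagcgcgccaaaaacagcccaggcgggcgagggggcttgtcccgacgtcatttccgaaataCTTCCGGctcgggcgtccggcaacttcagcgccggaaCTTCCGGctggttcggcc

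A match describes the letters of a window and is not a binding site. Genes with an NRF1 match had a median log2 fold change in the DG of -0.36 (17 genes), and those without had -0.43 (49 genes). The medians were -0.49 with an ETS match (16 genes) and -0.38 without (50 genes), and -0.43 with a YY1 match (7 genes) and -0.41 without (59 genes). Called lower were 13 of 17 genes with an NRF1 match and 42 of 49 without. For ETS these counts were 15 of 16 with a match and 40 of 50 without, and for YY1 6 of 7 and 49 of 59. Among all genes tested 10.9% were called lower. No test was made between these sets.

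Some subunits are made from more than 1 gene. Atp5g1, Atp5g2 and Atp5g3 encode the same mature c subunit of the ATP synthase ring. Atp5g1 was at 94.2 CPM in the DG against 121, 128 and 129 CPM in wild-type AH (log2 fold change -0.42 ± 0.07 standard error, edgeR adjusted p = 0.00239), and Atp5g3 was called lower, with a log2 fold change of -0.39. Atp5g2 was at 60.3 CPM in the DG against 69.3, 67.5 and 67.0 CPM in wild-type AH (-0.18 ± 0.07, edgeR adjusted p = 0.109) and was not called. As a share of the counts of the 3 genes, not per length, Atp5g2 took 19.5% in the DG against 17.8%, 16.5% and 17.1% in wild-type AH. Whether these genes differ in response was not tested.

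Isoforms known from muscle, testis or hypoxia were low in every library. Cox7a1, a muscle isoform, lay between 0.466 and 1.08 CPM, Cox6b2, a testis isoform, between 0.640 and 1.18 CPM, and Ndufa4l2, which hypoxia induces, between 1.12 and 2.12 CPM. Cox8b, a muscle isoform in rodents, lay between 0.0579 and 0.303 CPM and passed the low-count filter in the DG comparison alone, where its log2 fold change of 0.53 was not called. Cox8c had 0 counts in every library. The gene-table count of Cox7b2 was 28.3 times its exon-bin reads and that of Atp5l-ps1 314 times, so their levels of 2.23 and 3.11 CPM and 1.95 and 2.63 CPM at the lowest and highest come mostly from counts outside the exon bins.

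**Figure D3:**
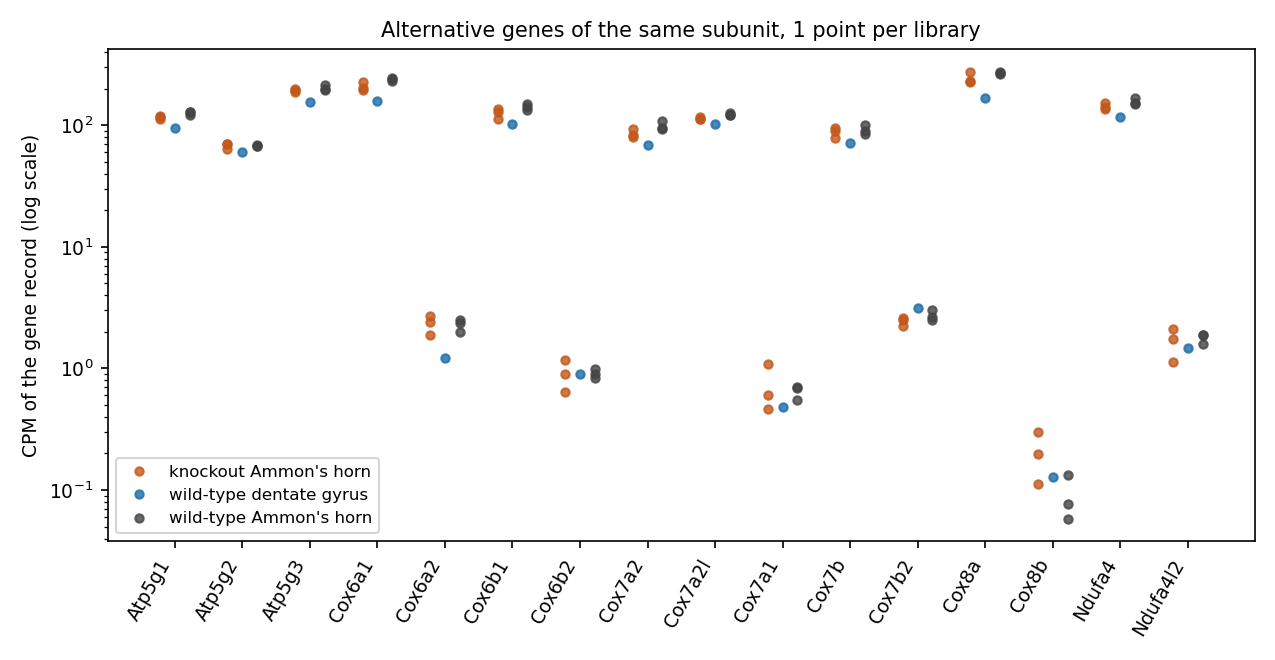
Each point is the CPM of a gene record in 1 library, for subunits made from more than 1 gene. Values are not per length and compare libraries, not genes. The DG point of Cox6a2 (1.23 CPM) lies below those of all AH libraries, while that of Cox6b2 lies among them.

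Levels between genes were compared per length, as exon-bin reads per kilobase of exon model and per 1000000 reads (RPKM), for the 37 genes whose bins could be rebuilt. In wild-type AH Cox6a1 led with 568 ± 18.1 RPKM (mean ± SD, n = 3), followed by Atp5b (512 ± 9.44) and Atp5a1 (492 ± 3.87). In the DG Cox6a1 was below both, at 376 RPKM, with Atp5b at 398 and Atp5a1 at 416. The knockout had Atp5b at 506 ± 12.8 and Cox6a1 at 498 ± 21.6. In wild-type AH Uqcrh (214 ± 15.9), the highest of complex III, and Atp5c1 (214 ± 6.12) did not differ beyond their spread. Genes without rebuilt bins, among them Ndufb9 and Sdha, have no rank here, so highest and lowest refer to the rebuilt genes of a complex. Of those in complex I, Ndufa1 was highest (163 ± 14.0) and Ndufb7 lowest (13.4 ± 0.693) in wild-type AH. In complex II, Sdhb was at 79.0 ± 3.64 and Sdhc at 33.3 ± 2.52, and in complex III the lowest was Uqcrfs1 at 60.6 ± 2.94. At the low end stood Cox6b2 (2.75 ± 0.437), Cox7b2 (0.332 ± 0.0831) and Atp5l-ps1 (0.0560 ± 0.0487). Exon models join all annotated transcripts, which lengthens some of them (4522 bases for Ndufb7) and lowers the value. Gene-table counts were 0.710 times the exon-bin reads for Atp5k, 0.860 times for Atp5b and 1.02 times for Cox6a1. Levels per length therefore depend on how reads were counted.

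The subunit genes are short: their median transcript length was 655 bases over 82 genes, against 1970 over 21095 protein-coding genes. Length moved with the fold change over all protein-coding genes. In the DG comparison the median was -0.10 under 1000 bases, -0.04 from 1000 to 2000, 0.03 from 2000 to 4000 and 0.15 over 4000. The subunit genes had medians of -0.44 (61 genes), -0.31 (17 genes) and -0.27 (3 genes) in the first 3 classes, below those of all genes. Called lower were 48 of 61, 15 of 17 and 2 of 3, where 18.2%, 13.3% and 10.8% of all protein-coding genes were. In the knockout comparison the subunit medians were -0.10, -0.06 and -0.08, against -0.02, -0.01 and 0.01 for all protein-coding genes. The part of length in the subunit values was not tested.

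**Figure D4:**
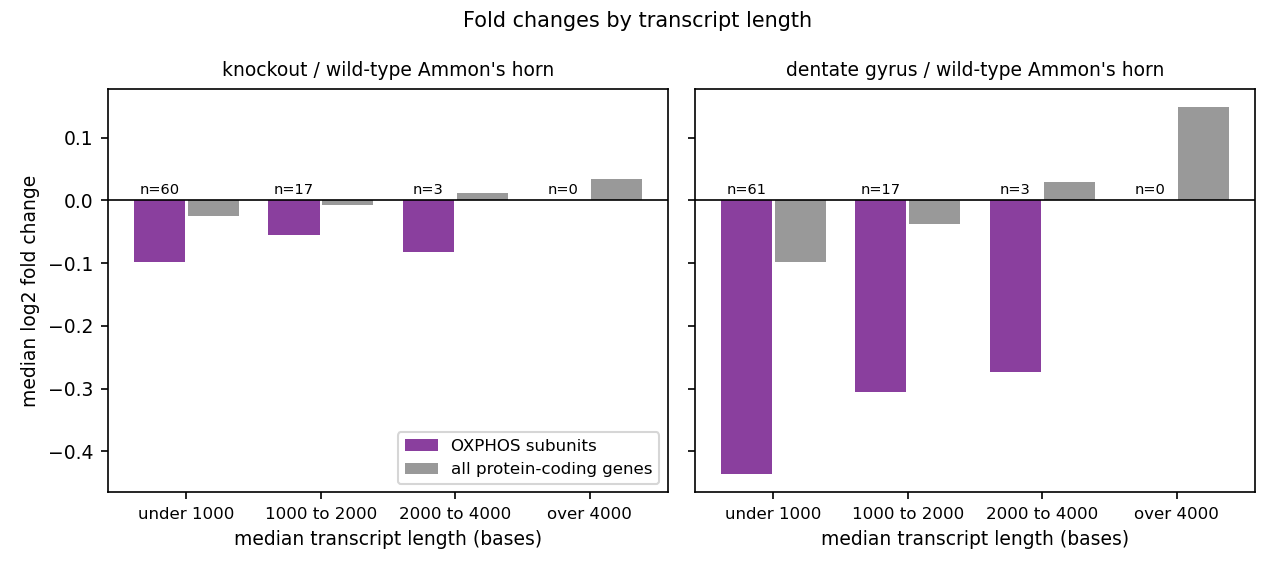
Bars give the median log2 fold change by median transcript length, for subunit genes (purple, their number above the bar) and all protein-coding genes (grey), in the knockout (left) and the DG (right), each over wild-type AH. In the DG the subunit medians are -0.44, -0.31 and -0.27, below the grey bar of each class, and none of the 81 tested subunit genes with a length is over 4000 bases.

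In the knockout 0 of 81 subunit genes tested were called in either direction. Few genes were called at all: 0.0657% of 22830 genes tested were higher and 0.00876% lower. DESeq2 (0.35% of genes higher, 0.171% lower) and limma-voom (0.0394% higher, 0.00438% lower) also called 0 subunit genes. An unadjusted p under 0.05 was reached by 14 subunit genes in edgeR (17.3%, against 8.38% of all genes tested), 16 in DESeq2 (19.8%, against 7.31%) and 15 in limma-voom (18.5%, against 8.25%). This count depended on single libraries. It was 30 (37.0%, against 9.50% of all genes) without knockout replicate 1, while it was 5 (6.10%, against 6.31%) without knockout replicate 2, 3 (3.70%, against 5.29%) without knockout replicate 3 and 4 (4.88%, against 7.57%) without wild-type replicate 2, and these last 3 shares lay below those of all genes. Without wild-type replicate 1 it was 20 (24.4%, against 8.47%), and without wild-type replicate 3 it was 13 (15.9%, against 9.298%). With the choroid plexus covariate it was 8 (9.88%, against 6.995% of all genes). Of the 81 values 76 were negative (93.8%), against 49.5% of all genes tested. The median log2 fold change was -0.09, against 0.00 for all genes, and -0.06 without wild-type replicate 2. From complex I to V the medians were -0.10, -0.03, -0.09, -0.11 and -0.06. Without wild-type replicate 2 those of complexes III and V were -0.06 and -0.02, while that of complex II lay between -0.07 (wild-type replicate 3 left out) and -0.02 (knockout replicate 3 left out), and was -0.06 with knockout replicate 1 left out.

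Cox6c had the lowest adjusted p of the subunit genes. It stood at 153, 149 and 141 CPM in the knockout against 163, 177 and 167 CPM in wild-type AH (log2 fold change -0.20 ± 0.05 standard error, edgeR adjusted p = 0.383). Ndufb3, an accessory subunit of complex I, was at 51.3, 48.5 and 49.8 CPM in the knockout against 53.7, 58.1 and 56.0 CPM in wild-type AH (-0.17 ± 0.05, edgeR adjusted p = 0.408). Cox6a1 was at 225, 201 and 195 CPM in the knockout against 229, 237 and 242 CPM in wild-type AH (-0.19 ± 0.06, edgeR adjusted p = 0.47). In these 3 genes every knockout library lay below every wild-type AH library, though the adjusted p was not under 0.05. That order held in 14 of the 81 genes, where 6.39% of all genes tested showed it, and the opposite order in 0, where 6.87% did.

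The knockout libraries differed among themselves. The median difference of the subunit genes from the wild-type mean was -0.02 in knockout replicate 1, within the range of the wild-type libraries, and -0.12 in knockout replicates 2 and 3. Uqcrq, a small subunit of complex III with the most negative value, overlapped: it was at 50.8, 40.8 and 41.5 CPM in the knockout against 45.3, 56.4 and 53.0 CPM in wild-type AH (-0.22 ± 0.09, edgeR adjusted p = 0.574). Uqcrc2 was at 184, 189 and 186 CPM in the knockout against 187, 188 and 185 CPM in wild-type AH (0.00 ± 0.05, edgeR adjusted p = 0.999). Ndufa10, an accessory subunit and the highest value of complex I, was at 116, 110.2 and 108 CPM in the knockout against 104, 112 and 108 CPM in wild-type AH (0.04 ± 0.05, edgeR adjusted p = 0.851). The most negative values of complexes I, II, IV and V were those of Ndufa13, Sdhc, Cox7a2 and Atp5j2 (-0.20, -0.08, -0.20 and -0.13), and the highest of complexes II, IV and V those of Sdhd, Cox7a1 and Atp5s (-0.02, 0.12 and 0.03).

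Sums of several cell marker lists did not overlap between the genotypes, while few single markers passed the test. Oligodendrocyte markers summed to 3504, 3396 and 3626 CPM in the knockout against 4140, 4025 and 3972 CPM in wild-type AH, with 1 of 6 (Cldn11) called lower, and microglia markers to 329.5, 335 and 321 CPM against 363, 349.9 and 366 CPM. Granule cell markers summed to 709, 691 and 676 CPM in the knockout, where wild-type AH had 755, 749 and 758 CPM, and CA1 markers to 698, 686 and 723 CPM, where wild-type AH had 750.5, 771 and 745 CPM. In these 4 lists every knockout sum lay below every wild-type sum, and no marker of theirs other than Cldn11 was called. For single genes, 6.39% of all genes tested had that order and 6.87% the opposite. Interneuron markers lay the other way, at 676, 643 and 654 CPM in the knockout where wild-type AH had 635, 612 and 567 CPM, with 0 of 6 called. Astrocyte sums overlapped, at 1333, 1303 and 1251 CPM in the knockout against 1369, 1283 and 1388 CPM in wild-type AH. So did sums of CA2 and CA3 markers, at 300, 301 and 292 CPM against 294, 316 and 312 CPM. None of 12 choroid plexus markers was called. With those markers as a covariate the subunit median was -0.11, and without knockout replicates 1 and 3 it was -0.13. The part of these cell types in the subunit values was not tested.

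Because KHDRBS3 acts on splicing, the use of exon bins within the subunit genes was tested with diffSpliceDGE of edgeR, adjusted over all bins. In the knockout 0 of 598 bins in 76 subunit genes were called, where 0.00301% of 166154 bins were, and 5 of the 598 had an unadjusted p under 0.05, where 2852 of the 166154 bins did. With limma 0 were called and 8 had an unadjusted p under 0.05, where 4820 of the 166154 did. In both tools the share among subunit bins was below that among all bins. In the DG 4 of 602 bins were called, where 0.213% of 169072 bins were. They lay in Atp5b, Cox6c and Atp5g1.

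The called bins held small parts of their genes. Bin 7 of Atp5b (mm10, chromosome 10, 128084472 to 128085090) is spanned by 2 of 9 annotated transcripts, of which 1 skips it, and is coding in 0. It had 43 reads in the DG and 6, 12 and 8 in the knockout, where wild-type AH had 5, 18 and 6. Its share of the gene's bin reads was 0.0745% in the DG against 0.00758%, 0.0204% and 0.00764% in wild-type AH (difference from the gene in natural log units, not log2, 1.78 ± 0.24 SE, edgeR adjusted p = 2.8e-07). It fell under the read minimum without knockout replicate 2 or wild-type replicate 2. Bin 8 of Cox6c had a share of 0.662% in the DG and 0.398%, 0.228% and 0.433% in the knockout, where wild-type AH had 0.178%, 0.213% and 0.237% (DG over wild-type AH, natural log, 1.14 ± 0.18 SE, edgeR adjusted p = 7.6e-05). Bin 10 of Cox6c had 31 reads in the DG against 12, 16 and 8 in wild-type AH (natural log, 1.30 ± 0.25 SE, edgeR adjusted p = 0.00562). In each of these bins the DG share lay above those of all 6 AH libraries.

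Bin 2 of Atp5g1 (mm10, chromosome 11, 96068867 to 96072986) spans 4120 bases, in 2 of 4 annotated transcripts and coding in 0. Its share was 6.73% in the DG and 5.14%, 5.23% and 5.19% in the knockout, where wild-type AH had 5.25%, 4.20% and 4.23% (DG over wild-type AH, natural log, 0.40 ± 0.08 SE, edgeR adjusted p = 0.0367). The call was absent without knockout replicate 1 or 3 or wild-type replicate 2 or 3, with an adjusted p of up to 0.201. Ndufv3, an accessory subunit of complex I, has a known alternative exon, and which of its bins holds that exon was not determined. Its bin with the lowest p, bin 3, had a share of 14.8% in the DG and 8.96%, 10.3% and 10.6% in the knockout, where wild-type AH had 9.87%, 8.81% and 9.60% (DG over wild-type AH, natural log, 0.45 ± 0.11 SE, edgeR adjusted p = 0.085). This bin was not called, and its DG share lay above those of all 6 AH libraries. Atp5c1 also has a known alternative exon, and its bin 3 of 37 bases is skipped by 1 of the 3 annotated transcripts that span it. That bin had a share of 4.41% in the DG against 4.57%, 4.94% and 4.51% in wild-type AH. It was called in neither comparison, the DG share lay below each of the wild-type AH shares, and the knockout shares overlapped them.

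**Figure D5:**
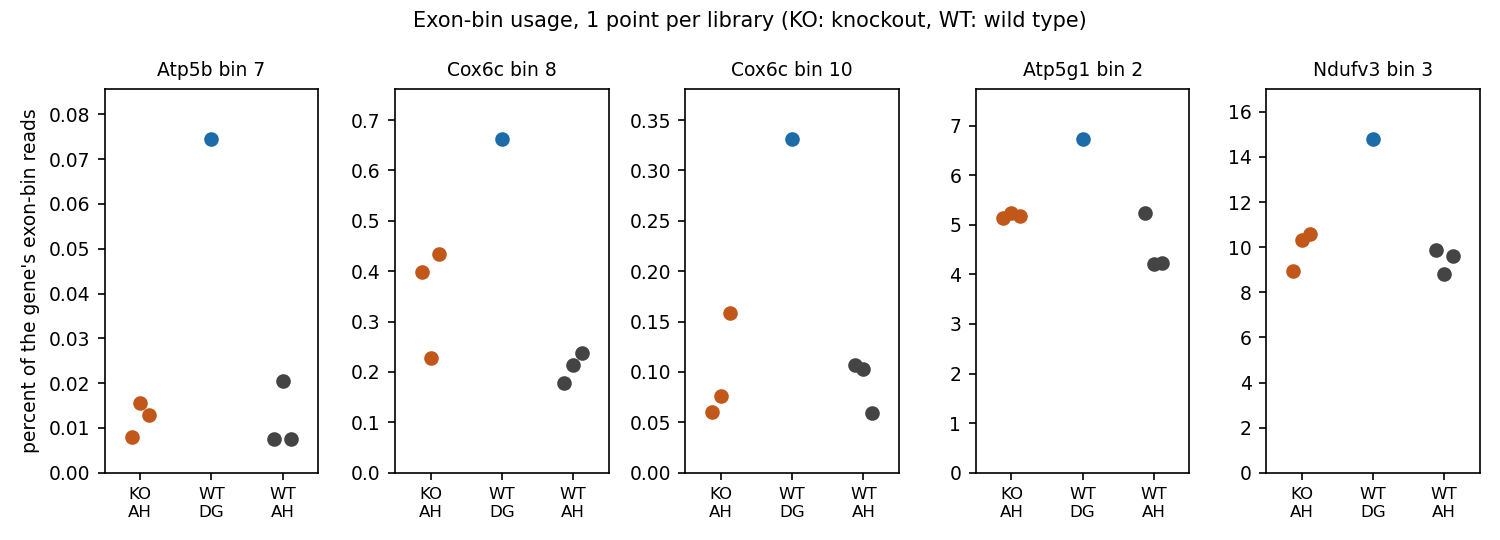
Points give the percentage of a gene's exon-bin reads that fall in 1 bin, 1 point per library, for the 4 bins called in the DG and for bin 3 of Ndufv3, which was not called. The DG point lies above all AH points in each panel, and the scales differ, with highest points of 0.0745% for Atp5b bin 7 and 14.8% for Ndufv3 bin 3.

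Of 8 further genes of the chain that the name rule misses, 5 were called lower in the DG and 0 higher. Their median log2 fold change was -0.42. By the same test 10.9% of all genes were lower and 11.2% higher. Cox4i1, the main isoform of subunit 4, was at 245 CPM in the DG against 341, 363 and 345 CPM in wild-type AH (log2 fold change -0.52 ± 0.09 standard error, edgeR adjusted p = 0.00196). Cycs (cytochrome c), Cyc1 (cytochrome c1), 2010107E04Rik and Atpif1, an inhibitor of ATP hydrolysis by the synthase, were called lower, with log2 fold changes of -0.51, -0.38, -0.47 and -0.63. The minor isoform Cox4i2 was not called (-0.29). In the knockout 0 of the 8 were called, and 8 values were negative, with a median of -0.09. Over all genes tested 49.5% of the values were negative.

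For the 13 mitochondrially encoded subunits the gene table and the exon bins gave different pictures. In the gene table mt-Co3, mt-Atp6 and mt-Nd1 were called lower in the DG (-0.70, -0.65 and -0.30) and 0 higher, with a median of -0.38. Of all genes 10.9% were lower. With the 4 wild-type libraries alone 10 were lower (8.54% of all genes). Without knockout replicate 2 there were 7 (9.82%) and without knockout replicate 3 there were 6 (9.62%). The call of mt-Nd1 was absent without knockout replicate 2, wild-type replicate 2 or wild-type replicate 3, with an adjusted p of up to 0.113. In the knockout mt-Nd2 (0.69, edgeR adjusted p = 6.6e-04) and mt-Co1 (0.56, edgeR adjusted p = 0.0387) were called higher in the gene table. With exon-bin reads mt-Co1 turned to -0.40 in the knockout, not called. In the DG it turned to -0.60, called lower (edgeR adjusted p = 0.00373), against 0.16 in the gene table, not called. The knockout call of mt-Co1 was also absent without knockout replicate 1 or any 1 wild-type replicate and with limma-voom, with an adjusted p of up to 0.208. The knockout median was 0.25 over the 13 genes in the gene table and -0.11 over the 6 genes measured in exon bins. In the gene table it was 0.05 without knockout replicate 2, 0.37 without knockout replicate 3, 0.40 with the choroid plexus covariate and 0.50 without knockout replicates 1 and 3.

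Assembly factors help to build the complexes and do not stay in them. In the DG 10.9% of all genes tested were called lower and 11.2% higher. For complex I, 2 of 13 were called lower in the DG, Ndufaf2 (-0.47) and Ndufaf3 (-0.44). For complex IV, 4 of 12 were called lower, Cox16, Cox17, Cox14 and Surf1 (-0.38, -0.34, -0.27 and -0.27), and 1 higher, Cox20 (0.48). For complex III, Uqcc2 (-0.30) was called lower of 5 tested, and of the 2 for complex II and 3 for complex V 0 were called. From complex I to V the medians were -0.12, -0.09, -0.01, -0.10 and -0.09. No test was made between assembly factors and subunits. In the knockout 0 assembly factors were called.

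Of 13 genes of the citric acid cycle, which feeds the chain, 7 were called lower in the DG and 0 higher. Among all genes tested 10.9% were lower and 11.2% higher. The median of the 13 was -0.25. The 7 included Idh3a (-0.32), Mdh2 (-0.28) and Sucla2 (-0.26). With the 4 wild-type libraries alone 2 were called, and without knockout replicate 3 there were 3. Of 12 regulators of respiratory genes 2 were called lower and 3 higher, where 10.9% and 11.2% of all genes tested were. Their median log2 fold change was 0.28, with 10 values positive and 2 negative. Ppargc1a, a coactivator of mitochondrial biogenesis, was at 29.1 CPM in the DG against 41.8, 38.2 and 40.2 CPM in wild-type AH (log2 fold change -0.47 ± 0.09 standard error, edgeR adjusted p = 0.00403). Esrra, the ERR alpha gene, was called lower, with a log2 fold change of -0.32, while Yy1, Pprc1 and Gabpb1 were called higher, with log2 fold changes of 0.41, 0.40 and 0.37. With the 4 wild-type libraries alone 1 regulator was lower and 2 were higher, and without knockout replicate 1 or wild-type replicate 1 there was 1 in each direction. Tfam, which packages mitochondrial DNA, was not called (0.10). In the knockout 0 of the 12 regulators and 0 of the 13 cycle genes were called.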

How the data were processed

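The authors deposited raw, whole-number counts in 2 forms: per GENCODE M2 gene record, over the whole record, for all 7 libraries, and per DEXSeq exon bin for each library. Per the submitters' processing notes the tools were bedtools 2.17.0, DESeq2 1.0.19, TopHat2 2.0.8b and Trim Galore 0.3.5, with mm10 as genome build; their roles and the strand of counting are not given in the sources used here. Reads of overlapping records may therefore be shared.

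The tests on gene counts used edgeR 4.0.16 under R 4.3.3, with TMM scaling, filterByExpr and a two-sided quasi-likelihood F test. The knockout fit held the 6 AH libraries and the DG fit all 7 in 3 groups, so both share the wild-type AH libraries. The biological coefficient of variation was 10.6% and 10.8%. Values after ± are standard errors of the log2 fold change, unless named as SD or given for an exon bin. Differences in exon-bin usage and their standard errors are in natural log units. Exon bins entered with 10 or more reads in 3 or more libraries, in genes holding 2 or more such bins. Transcript lengths and exon models come from GENCODE M21, and a gene's bins were used with coordinates where they could be rebuilt. Alternatives were RLE scaling, DESeq2 1.42.0, limma 3.58.1, no low-count filter, exon-bin sums, leaving out mitochondrial genes or single libraries, the 4 wild-type libraries alone and a choroid plexus covariate. Replicates are numbered in accession order and differed beyond sampling noise (chi-square per degree of freedom 16.7 to 87.7). Scripts were run on simulated counts with known changes, at a gene-level spread smaller than that of these libraries. That run counted recovered changes, signs and false calls, and did not check the size of a change.

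Named were genes called (up to 30 per comparison, largest change first), the highest and lowest fold change and level per length of each complex, isoforms of 1 subunit, genes with a called or known alternative exon, genes not tested, and up to 4 called genes of other lists. Other subunits are named for their role, or because a call depends on a setting or record overlap, after their values were seen. Some genes are not reported here. The members and lists were chosen with earlier results of these data known.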

Additional observations from a re-analysis of the deposited data

How the results depend on the processing

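No paired analysis was possible because the labels give the groups no shared replicate numbers. In the DG, 51 of the 65 calls held in every alternative setting they were measured in. The count of subunit genes called lower was 65 with RLE scaling, limma-voom, exon-bin sums or mitochondrial genes left out, 66 with DESeq2, 63 with no filter, 54 with the 4 wild-type libraries alone and 56 to 62 with 1 library left out; over these settings 8.29% to 14.5% of all genes were called lower. It was 42 among genes with no overlapping record, a choice made after seeing the data that measures fewer genes. With at least 30 reads per bin, 2 bins of subunit genes were called in place of 4, because Atp5b bin 7 and Cox6c bin 10 were then not tested, and 3 to 4 with 1 library left out. The DG median was -0.41 to -0.35 with 1 library left out, and the knockout median -0.12 to -0.06. In the knockout 0 subunit genes were called in every setting run, including the removal of knockout replicates 1 and 3, chosen after seeing the data. Of their bins 0 were called in every setting run for bins, which did not include that removal. Over all genes the knockout calls were 15 higher and 2 lower in edgeR, 80 and 39 in DESeq2, 9 and 1 in limma-voom, 20 and 8 with the choroid plexus covariate, 5 and 3 with exon-bin sums, 3 and 1 without mitochondrial genes, and 10 to 53 and 1 to 8 with 1 library left out. No called value of a named gene of the name rule changed sign. The single DG library gives no spread of its own, and low counts limit the isoforms near 1 CPM.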
